A study of Homo sapiens with 54 samples.

Results

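The libraries described here compared MDA-MB-231 cells given a mixture of 3 purified plant compounds for 48 h with untreated cells at the same time. They were chosen by their labels alone, as the 3 libraries of the mixture and the 3 untreated libraries of the first batch at 48 h, and they are 6 of the 54 libraries in the series. MDA-MB-231 is an established line of triple-negative breast cancer cells, and the series is an RNA-seq study of Compound Kushen Injection (CKI), a water extract of 2 medicinal roots, and of mixtures built from or lacking some of its main compounds. The mixture studied here, MOO, held macrozamin, oxymatrine and oxysophocarpine and nothing else of the extract, each at the amount present in CKI at 2 mg/ml. The untreated cells (UT) were grown in the same medium, DMEM with 10% serum, and whether they received the solvent of the compounds is not said in the labels. Every group had 3 libraries, labelled biological replicates 1 to 3 of 1 cell line, so p-values here measure the spread among these cultures only. 4 further groups of the same batch were used for comparison, namely cells given oxymatrine and oxysophocarpine without macrozamin (OO) for 48 h, cells given whole CKI at 2 mg/ml for 48 h, and MOO and untreated cells at 24 h.

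Oxymatrine and oxysophocarpine are the N-oxides of the quinolizidine alkaloids matrine and sophocarpine, and macrozamin is a sugar-linked form of methylazoxymethanol, a compound known for alkylating DNA once it is freed from the sugar. 3 kinds of programme recur in the results. When unfolded proteins build up in the endoplasmic reticulum (ER), the sensors ATF6, IRE1 and PERK raise the chaperones of the ER, and PERK, like other kinases that sense amino acid lack or heme lack, also raises the transcription factors ATF4, CHOP (gene DDIT3) and ATF3. DNA replication genes are transcribed ahead of S phase under E2F factors, and mitosis genes later in the cycle. Interferon-stimulated genes are driven by STAT and IRF factors and encode antiviral proteins, many of which cancer cell lines express without infection.

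The 6 libraries held 22033415 to 24708584 counted reads over 27978 genes, and the 10 most abundant genes took 4.88% to 5.21% of them. Between 17819 and 18018 genes had at least 1 read in the untreated libraries and between 18280 and 18363 in the MOO libraries. Of the mesenchymal-like markers known for MDA-MB-231 (VIM, CD44, AXL, ZEB1, MSN and SPARC), all 6 were expressed well enough to test. They summed to 3190 to 3319 CPM in the untreated libraries and 2823 to 2867 CPM in the MOO libraries. CPM are normalised read counts, each library scaled to the same effective size. Sums of marker lists were instead scaled by the total reads of each library alone. The luminal genes ESR1, PGR and FOXA1, which triple-negative lines are known to lack, had at most 1, 0 and 8 reads in a library. The other 5 of the 8 luminal markers listed, GATA3, ERBB2, CDH1, EPCAM and KRT19, were expressed well enough to test. ERBB2 had 2699, 2286 and 2572 reads in the untreated libraries.

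Treatment with MOO changed a majority of the expressed genes. Of 14373 genes tested, 8701 were differentially expressed (DE; edgeR quasi-likelihood test, Benjamini-Hochberg adjusted p under 0.05), which is 60.5% of those tested. Of these 4377 (30.5%) were higher and 4324 (30.1%) were lower in MOO, a split that became 5292 higher and 3516 lower with library sizes alone as the scaling. Most of the changes were small, since 1531 genes (10.7%) were both DE and at least 2-fold changed, 748 upward and 783 downward, and only 143 rose and 151 fell by 4-fold or more. The median gene sat at a log2 fold change of 0.01. The libraries of both groups did not overlap for 32.7% of genes in the upward and 31.7% in the downward direction. A count of DE members in any gene group has to be read against these shares.

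IL24, a secreted cytokine of the IL-10 family, showed the largest rise where the mean level reached 10 CPM. Its level was 2.53, 3.33 and 3.12 CPM in untreated replicates 1 to 3 and 65.4, 64.4 and 64.1 CPM in MOO replicates 1 to 3. All 3 MOO libraries lay far above all untreated ones, with a log2 fold change of 4.44 ± 0.09 (SE; edgeR, adjusted p = 6.24e-15). MMP1, the interstitial collagenase, went from 9.87, 9.06 and 9.08 CPM to 160.4, 143 and 151 CPM, a log2 fold change of 4.02 ± 0.07. KRT34, a hair keratin rarely made outside hair, went from 3.92, 3.14 and 3.12 CPM to 39.8, 35.2 and 37.6 CPM, a log2 fold change of 3.46 ± 0.10. The groups were as clearly apart for both genes.

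The other genes of the 12 largest rises by that rule were of mixed roles. They included the pregnancy-specific glycoproteins PSG7 (4.16) and PSG1 (2.62), whose values are uncertain because the PSG genes are near-identical copies, and the stress-induced long noncoding RNA LUCAT1 (3.63). SCG5, a chaperone of a prohormone convertase, rose by 2.80, and SUN3, a nuclear envelope protein, by 2.56 on the log2 scale. The remaining 4 were the stress transcription factors DDIT3 and ATF3, the cystine transporter SLC7A11 and the neutrophil chemokine CXCL8, described with their groups.

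LGALS12, which encodes galectin-12, a sugar-binding lectin, showed the largest fall at that level of expression. It stood at 73.1, 85.3 and 80.5 CPM in the untreated libraries and 5.11, 5.15 and 5.97 CPM in the MOO libraries, a log2 fold change of -3.88 ± 0.09. CEMIP, a hyaluronan-degrading protein linked to cell migration, stood at 433, 394 and 409 CPM in untreated and 51.6, 55.3 and 54.5 CPM in MOO libraries, and its log2 fold change was -2.93 ± 0.06. The groups did not overlap for either gene, which the rule for naming them required. The other large falls took in the water channels AQP3 (-2.77) and AQP1 (-2.73), the laminin receptor BCAM (-2.62), the organic anion transporter SLCO4A1 (-2.73), the collagen gene COL1A2 (-2.87) and the lipopolysaccharide co-receptor CD14 (-2.83). ALPP (-3.10), which encodes placental alkaline phosphatase and has close copies, RARRES3 (-3.09), PLEKHS1 (-3.36) and the antiviral gene OASL (-2.73) completed the set.

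**Figure D1:**
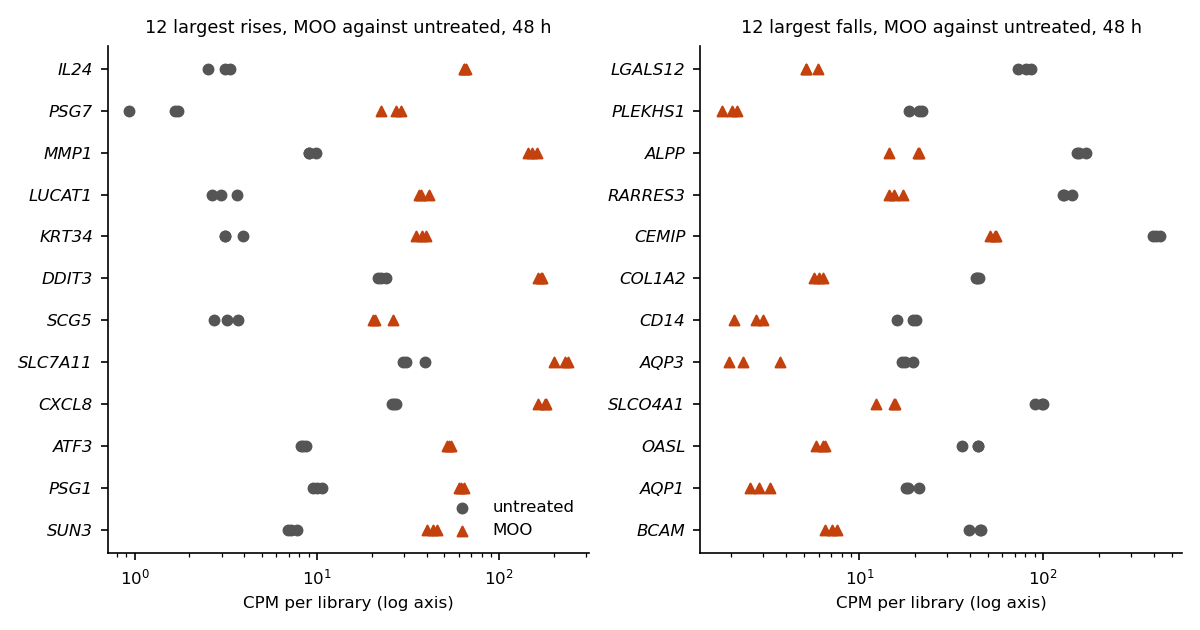
Normalised read count (CPM, log axis) of the 12 genes with the largest rise and the 12 with the largest fall after MOO at 48 h (mean of 10 CPM or more, no overlap), 1 point per library, 3 untreated and 3 MOO. The 2 groups were apart for every gene drawn, since the selection required it, and IL24 ran from 2.99 CPM on average in untreated cells to 64.6 CPM in MOO.

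COL1A2 and CD14 are also markers of fibroblasts and leukocytes. The 6 fibroblast markers summed to 70.8 to 74.3 CPM in the untreated and 29.3 to 33.2 CPM in the MOO libraries. Of the 4 testable, COL1A2 and PDGFRB were lower, while COL1A1 and LUM did not pass the test. COL1A2 had 1071, 958 and 969 reads in untreated and 133, 143 and 147 in MOO libraries. COL1A1 had 353, 347 and 356 reads in untreated and 343, 361 and 403 in MOO libraries. DCN had no read in any library. The 5 leukocyte markers summed to 17.4 to 20.8 CPM and 2.54 to 3.66 CPM, with CD14 and LYZ lower and PTPRC and CD3E at no more than 9 and 2 reads. All 5 testable luminal markers of 8 were lower as well, and the list summed to 895 to 982 CPM in untreated and 633 to 720 CPM in MOO libraries. The part of these markers in the results was not tested. In bulk RNA, fewer cells of a kind and less RNA per cell cannot be told apart.

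A set of 22 gene groups was read from the same test, and the plot of their members shows how they were spread. The groups with the highest medians were the ER chaperones and the ATF4 and CHOP stress genes, and those with the lowest were the interferon-stimulated genes, the DNA replication genes and the mitosis genes.

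**Figure D2:**
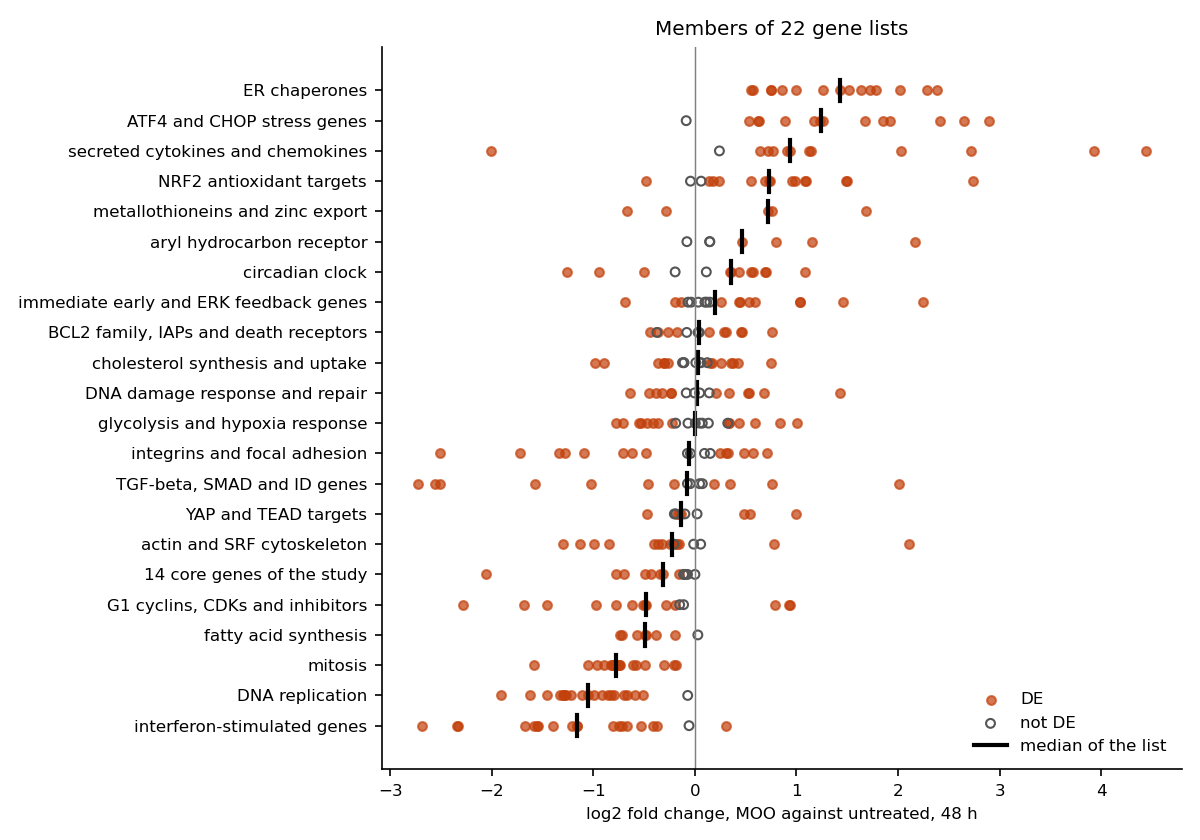
Log2 fold change, MOO against untreated at 48 h, of every tested member of the 22 gene groups, 1 point per gene, filled where DE, with a bar at the median of each group. The ER chaperones had a median of 1.43 and the interferon-stimulated genes of -1.16, against 0.01 over all genes tested.

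The ER chaperones and folding enzymes rose together. All 15 members tested were DE and higher in MOO, against 30.5% of all genes, and 9 were at least 2-fold higher, with a median log2 fold change of 1.43. HSPA5, which encodes BiP, the main chaperone of the ER, stood at 1338, 1263 and 1276 CPM in the untreated libraries and 6983, 6585 and 6658 CPM in the MOO libraries. The groups lay far apart, at 5.22-fold and a log2 fold change of 2.38 ± 0.05 (edgeR, adjusted p = 1.12e-14). HERPUD1, a membrane protein that helps clear misfolded proteins from the ER, went from 52.4, 55.2 and 49.9 CPM to 259, 253 and 255 CPM (2.28 ± 0.06). The smallest rise of the 15 was that of CRELD2, an ER protein of the thrombospondin-folding machinery, at 0.55 ± 0.07.

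The unfolded protein response acts on many of these genes through the ER stress response element, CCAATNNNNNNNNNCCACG, to which NF-Y and ATF6 bind together. In the 250 bases ahead of the RefSeq transcription start (GRCh38.p14, both strands searched), 6 of the 15 members held it, namely HSPA5, HSP90B1, PDIA6, CALR, XBP1 and CRELD2, compared with 0.0916% of 27305 genes with a window. The counts were made on hg19, so these windows are shown for their sequence only. The 3 with the largest change of the 6 are printed, as examples of the element, which is in capitals within 80 bases of each, with HSPA5 at chr9:125241361-125241440 (minus strand), HSP90B1 at chr12:103930185-103930264 (plus strand) and PDIA6 at chr2:10812823-10812902 (minus strand).
HSPA5: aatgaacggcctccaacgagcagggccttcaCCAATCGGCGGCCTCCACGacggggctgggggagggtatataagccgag
HSP90B1: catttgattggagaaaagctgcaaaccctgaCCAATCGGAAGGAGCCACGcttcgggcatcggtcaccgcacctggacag
PDIA6: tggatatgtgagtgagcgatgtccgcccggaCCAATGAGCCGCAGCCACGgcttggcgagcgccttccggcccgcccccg
HSP90B1, the ER form of HSP90, rose by 1.26 ± 0.06 and PDIA6, a disulfide isomerase, by 0.75 ± 0.05. A match is a run of letters and not a measured binding site, and 9 members without it rose too.

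The ATF4 and CHOP stress genes rose in the same libraries. Of 14 members, 13 were higher and none was lower (1 without untreated replicate 1), with a median log2 fold change of 1.24 and 9 at least 2-fold higher. DDIT3, which encodes CHOP, stood at 22.5, 23.8 and 21.8 CPM in untreated and 169.6, 164 and 172 CPM in MOO libraries. The rise was 7.43-fold (log2 2.89 ± 0.06; edgeR, adjusted p = 7.14e-15), with no overlap. ATF3 went from 8.44, 8.21 and 8.68 CPM to 51.7, 53.2 and 54.1 CPM (2.65 ± 0.07). The mRNA of ATF4 itself, which is controlled largely in translation, rose by 0.54 ± 0.05. The exception was DDIT4, an inhibitor of mTORC1, at 421, 490.1 and 485 CPM and 425, 470.5 and 419.6 CPM, groups that overlapped (log2 -0.09 ± 0.07; edgeR, adjusted p = 0.273).

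ATF4 binds with C/EBP partners at amino acid response elements, of the form TGATGNAA on either strand. 3 of 13 members with a window held those letters, ATF3, ASNS and CHAC1, against 3.89% of all genes with a window. These 3 are printed with the match in capitals, ATF3 at chr1:212565180-212565259 (plus strand), ASNS at chr7:97872433-97872512 (minus strand) and CHAC1 at chr15:40953226-40953305 (plus strand).
ATF3: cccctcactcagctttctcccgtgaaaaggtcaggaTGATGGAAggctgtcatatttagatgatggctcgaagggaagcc
ASNS: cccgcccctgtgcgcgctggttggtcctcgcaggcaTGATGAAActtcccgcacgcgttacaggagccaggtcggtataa
CHAC1: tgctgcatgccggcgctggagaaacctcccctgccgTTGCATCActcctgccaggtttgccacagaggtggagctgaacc
ASNS, asparagine synthetase, rose by 1.67 ± 0.19 and CHAC1, which degrades glutathione, by 1.17 ± 0.08 on the log2 scale. The letters TGATGNAA also stood in windows of 1 of 15 ER chaperones, HERPUD1, and 2 of 15 interferon-stimulated genes, IFIT3 and MX1. They stood in 0 of 18 replication genes and 0 of 17 mitosis genes.

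Targets of NRF2, the factor that answers oxidants, were mostly higher. 14 of 17 rose and 1 fell, with a median of 0.73. SLC7A11, the cystine transporter that feeds glutathione synthesis and is also an ATF4 target, had the largest rise, from 39.1, 30.8 and 29.7 CPM to 237, 200.4 and 229 CPM (2.74 ± 0.09). SRXN1, sulfiredoxin, which reactivates peroxiredoxins, stood at 98.1, 99.6 and 99.6 CPM and 283, 290.3 and 265 CPM and rose 2.82-fold. NQO1, the quinone reductase often taken as the standard NRF2 target, was the member that fell, from 175, 181 and 182 CPM to 132, 131 and 123 CPM (-0.48 ± 0.05; edgeR, adjusted p = 1.27e-06). The ferritin chains FTL (1.49) and FTH1 (0.98) rose too, and both have processed copies elsewhere in the genome that can share reads.

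Among aryl hydrocarbon receptor genes 4 of 7 rose and none fell, with a median of 0.46. CYP1A1, the monooxygenase that is the receptor's most responsive target, was low in untreated cells, at 1.35, 1.22 and 1.07 CPM, and stood at 3.92, 6.25 and 6.32 CPM in MOO (2.17 ± 0.22). TIPARP, a feedback inhibitor of the receptor, rose by 1.15 ± 0.08. Of 5 metallothionein and zinc genes tested, 3 rose and 2 fell. MT1X, a metal-binding protein, rose by 1.68 ± 0.08 and MT1F fell by 0.67 ± 0.16 on the log2 scale. The MT1 genes are close copies, and the call of MT1F was lost when the spread was estimated over all 18 libraries of the 48 h groups.

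DNA replication genes fell almost as a block. Of 21 members 20 were lower and none was higher, against 30.1% of all genes lower, with a median log2 fold change of -1.05 and 11 at least 2-fold lower. UHRF1, which reads hemimethylated DNA behind the fork, stood at 173, 179 and 186 CPM in untreated and 43.9, 53.4 and 45.9 CPM in MOO libraries. The difference was clear of the spread in both groups, with a log2 fold change of -1.91 ± 0.07 (edgeR, adjusted p = 2.46e-12). TYMS, thymidylate synthase, went from 91.6, 91.4 and 87.5 CPM to 30.7, 29.4 and 27.5 CPM (-1.63 ± 0.06), and PCNA, the sliding clamp of DNA polymerases, from 118, 126 and 121 CPM to 64.9, 58.4 and 60.1 CPM (-0.99 ± 0.06). CDC6, which loads the MCM helicase, was the member that did not pass, at -0.07 ± 0.06.

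E2F factors recognise a family of GC-rich sites that open with a run of T. The letters TTTCCCGC, TTTGGCGC, TTTCGCGC or TTTGCCGC stood in the windows of 10 of 18 replication genes and of 928 of all 27305 genes. The windows of the 3 that changed most are printed with the match in capitals, UHRF1 at chr19:4909421-4909500 (plus strand), TYMS at chr18:657573-657652 (plus strand) and MCM3, a subunit of the replicative helicase, at chr6:52284873-52284952 (minus strand).
UHRF1: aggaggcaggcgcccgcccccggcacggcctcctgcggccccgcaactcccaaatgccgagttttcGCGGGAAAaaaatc
TYMS: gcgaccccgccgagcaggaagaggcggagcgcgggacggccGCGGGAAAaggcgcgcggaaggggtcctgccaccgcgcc
MCM3: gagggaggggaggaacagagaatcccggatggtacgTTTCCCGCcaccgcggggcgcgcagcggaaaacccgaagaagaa
MCM3 itself fell by 1.29 ± 0.05 on the log2 scale. The E2F letters also stood in windows of 3 of 15 interferon-stimulated genes, OAS3, IFIH1 and RSAD2, and 2 of 17 mitosis genes, CDK1 and NUSAP1. They stood in 0 of 15 ER chaperones and 0 of 13 ATF4 and CHOP genes.

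All 20 mitosis genes were lower, with a median of -0.77. KIF20A, a kinesin of cytokinesis, went from 102, 94.4 and 98.2 CPM to 34.1, 30.4 and 33.6 CPM (-1.59 ± 0.06). PLK1, the polo-like kinase, went from 148, 157 and 163 CPM to 73.5, 78.1 and 74 CPM (-1.05 ± 0.06), and cyclin B1 (CCNB1) from 223, 233 and 227 CPM to 138, 131 and 130.4 CPM (-0.77 ± 0.05). No MOO library reached an untreated one for these 3 genes. The cell cycle homology region TTTGAA, a site of the DREAM complex, stood in the windows of 8 of 17 of the group, a short motif that 16.1% of all genes also hold.

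The G1 regulators did not share 1 direction. Of 16 tested, 3 rose and 11 fell. MYC, the growth transcription factor, rose by 0.94 ± 0.07, cyclin D2 (CCND2) by 0.93 ± 0.17, and the CDK inhibitor p21 (CDKN1A) by 0.79 ± 0.06. CCND1, cyclin D1, went from 823, 754 and 784 CPM to 439, 466 and 469 CPM (-0.78 ± 0.05; edgeR, adjusted p = 4.18e-09). The CDK inhibitors p57 (CDKN1C, -2.28) and p18 (CDKN2C, -1.68) had the largest falls of the group.

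DNA damage response and repair genes were split, 6 higher and 6 lower of 16 tested, with a median of 0.02. GADD45A, a stress protein induced by damage and by ATF4, rose from 92.4, 99.2 and 107 CPM to 264, 269 and 267 CPM (1.42 ± 0.06), and GADD45B by 0.68 ± 0.07. XRCC1, a scaffold of single-strand break repair, fell by 0.45 ± 0.07 on the log2 scale. Among p53 targets of the list BTG2 (0.52 ± 0.21), RRM2B (0.34 ± 0.07) and XPC (0.21 ± 0.08) rose, while MDM2 (46.2 ± 0.636 CPM in untreated and 46.1 ± 3.2 CPM in MOO, mean ± SD, n = 3), DDB2 (0.05 ± 0.09) and SESN1 (-0.08 ± 0.13) did not pass the test. MGMT, which removes alkyl groups from guanine, had too few reads to test.

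Apoptosis regulators were as mixed, with 6 of 14 higher, 4 lower and a median of 0.04. TNFRSF10B, the TRAIL receptor DR5 and a CHOP target, rose from 148, 144 and 146 CPM to 260.3, 240.4 and 238 CPM (0.75 ± 0.05), and BIRC3, an inhibitor of apoptosis protein, by 0.46 ± 0.07. BCL2L11, the BH3-only protein BIM, had a log2 fold change of -0.44 ± 0.08 and BCL2L1, which encodes BCL-XL, of -0.36 ± 0.05, both DE.

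Interferon-stimulated genes fell. Of 20 tested 18 were lower, with a median log2 fold change of -1.16, and 1 was higher. OAS1, which makes an activator of RNase L, stood at 5.71, 5.96 and 6.28 CPM in untreated and 0.809, 0.718 and 1.25 CPM in MOO libraries, a log2 fold change of -2.68 ± 0.19 (edgeR, adjusted p = 5.79e-09). IFIT1, which binds uncapped viral RNA, went from 75.5, 81 and 72.2 CPM to 15.5, 14.6 and 15.1 CPM (-2.34 ± 0.07), and ISG15, a ubiquitin-like modifier, from 87.5, 104 and 98.9 CPM to 36.9, 35.6 and 38.1 CPM (-1.39 ± 0.07). The 3 genes had no overlap between groups. IRF7, an interferon regulatory factor, was higher by 0.31 ± 0.10, in groups that overlapped at 20.6, 24.2 and 25.5 CPM and 24.3, 33.2 and 29.4 CPM, and its call was lost without MOO replicate 2 or without untreated replicate 1.

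The interferon-stimulated response element GAAANNGAAA, the site of ISGF3 and of IRFs, stood in 12 of 15 windows of the group and in 3.71% of all windowed genes. Windows of IFIT1 at chr10:89392472-89392551 (plus strand), of IFI44L at chr1:78620249-78620328 (plus strand) and of OAS3 at chr12:112938296-112938375 (plus strand) are printed with the match in capitals.
IFIT1: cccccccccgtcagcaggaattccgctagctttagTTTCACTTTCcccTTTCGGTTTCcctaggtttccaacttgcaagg
IFI44L: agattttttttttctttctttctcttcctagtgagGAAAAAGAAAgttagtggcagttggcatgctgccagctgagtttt
OAS3: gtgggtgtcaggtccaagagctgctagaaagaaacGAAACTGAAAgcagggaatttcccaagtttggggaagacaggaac
IFI44L fell by 2.33 ± 0.40 and OAS3 by 1.56 ± 0.09 on the log2 scale.

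Secreted cytokines and chemokines went the other way, 11 of 13 tested higher and 1 lower, with a median of 0.94. IL1A, the alarmin interleukin-1 alpha, had the largest rise after IL24, from 0.612, 0.704 and 0.534 CPM to 11.3, 8.62 and 8.52 CPM (3.93 ± 0.20). CXCL8 went from 25.7, 27.2 and 26.5 CPM to 181, 164 and 179 CPM (2.72 ± 0.06) and IL6 from 15.8, 15.1 and 16.9 CPM to 30.5, 29.3 and 30.1 CPM (0.91 ± 0.07). CCL2, the monocyte chemokine, was the member that fell, and at 0.897, 0.939 and 0.623 CPM in untreated and 0.0851, 0.296 and 0.216 CPM in MOO libraries it was among the lowest genes tested.

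Cholesterol synthesis and uptake genes had no shared direction at 48 h, 7 of 20 higher and 6 lower, with a median of 0.03. The count of higher members was 4 without untreated replicate 2. STARD4, a cholesterol carrier, had the largest rise (0.75 ± 0.07). Mevalonate kinase, MVK, fell by 0.90 ± 0.08 on the log2 scale. HMGCS1, the synthase at the head of the pathway, stood at 98.7, 91.1 and 87.9 CPM and 80.5, 69.8 and 74.5 CPM (-0.31 ± 0.07). Fatty acid synthesis genes fell in 7 of 8 cases, with FASN, fatty acid synthase, at 1504, 1453 and 1539 CPM in untreated and 847, 973 and 874 CPM in MOO libraries (-0.74 ± 0.06) and SREBF1, the factor that drives the group, at -0.72 ± 0.08.

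Glycolysis and hypoxia genes were divided, 6 of 21 higher and 8 lower, with a median of 0.00. VEGFA, the angiogenic growth factor and an ATF4 target besides, rose by 1.01 ± 0.06 and NDRG1 by 0.84 ± 0.05. EGLN3, an oxygen sensor that marks HIF for destruction, had a log2 fold change of -0.77 ± 0.08 and lactate dehydrogenase A (LDHA) of -0.71 ± 0.05. CA9, carbonic anhydrase 9, was at 4.32, 7.04 and 6.72 CPM and 7.7, 7.98 and 6.79 CPM, in overlapping groups, with a log2 fold change of 0.32 ± 0.15 (edgeR, adjusted p = 0.0801).

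Most cytoskeletal genes fell slightly. Of 16 actin and SRF genes 11 were lower and 2 higher, with a median of -0.23. ACTB, beta-actin, one of the proteins that the study stained, went from 5841, 6210.1 and 6352 CPM to 3334, 3504 and 3438 CPM (-0.84 ± 0.05; edgeR, adjusted p = 9.69e-10), where reads can be shared with ACTG1 and processed copies. The myosin light chain MYL9 (-1.30 ± 0.07) and transgelin, TAGLN (-1.13 ± 0.11), had the largest falls. CNN1, calponin 1, a smooth muscle actin-binding protein, was an exception and rose from 0.245, 0.235 and 0.534 CPM to 1.11, 1.65 and 1.64 CPM (2.10 ± 0.35), and filamin C, FLNC, rose by 0.78 ± 0.06.

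Adhesion genes were mixed, with 6 of 18 higher and 8 lower. ITGB8, an integrin that activates latent TGF-beta, went from 4.61, 4.36 and 3.69 CPM to 1.06, 0.507 and 0.649 CPM (-2.51 ± 0.23), and the matrix glycoprotein THBS1 from 1140.3, 1020.3 and 1039 CPM to 321, 334 and 317 CPM (-1.72 ± 0.06). The integrin subunits ITGB3 (0.71 ± 0.09) and ITGA5 (0.57 ± 0.05) rose, while ITGB1, the common beta subunit, fell by 0.48 ± 0.06.

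Signal-responsive genes gave no single direction by group, but some members changed strongly. Of 18 immediate early and ERK feedback genes 9 rose and 3 fell. EGR1, a zinc finger factor induced within minutes of many stimuli, rose from 48.5, 48.1 and 59.6 CPM to 245, 259 and 239 CPM (2.25 ± 0.08), DUSP5, a phosphatase of ERK, by 1.45 ± 0.05, and FOS stood at 0.15 ± 0.08 without passing. The count of 3 lower genes was 1 without MOO replicate 3. The YAP and TEAD target group of 11 genes holds targets and also YAP1, WWTR1, TEAD1, TEAD4 and LATS2 themselves. In it 3 rose, the targets CYR61 (1.00), ANKRD1 (0.54) and CTGF (0.48), of which CYR61 and CTGF encode secreted matrix proteins. The 4 that fell, or 2 without MOO replicate 1, were the factors YAP1 and WWTR1 (-0.47) and the targets AMOTL2 and AJUBA (-0.18).

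Of 15 TGF-beta, SMAD and ID genes 4 rose and 7 fell, the 4 being 2 without untreated replicate 3. SMAD7, the inhibitory SMAD that TGF-beta induces, rose from 13.7, 15.9 and 18.7 CPM to 25.7, 29.2 and 26.5 CPM (0.76 ± 0.10). ID1 and ID3, inhibitors of differentiation that BMP signals induce, fell together, ID3 from 10.4, 11.1 and 10.2 CPM to 1.66, 1.82 and 1.3 CPM (-2.73 ± 0.14) and ID1 from 46.9, 48.2 and 44.9 CPM to 8.09, 8.32 and 7.35 CPM (-2.56 ± 0.08). The ligand BMP4 was lower too, by 2.51 ± 0.06 on the log2 scale. None of these had overlapping groups.

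In the circadian clock group 8 of 13 rose and 3 fell. ARNTL, which encodes the activator BMAL1, rose by 1.09 ± 0.09 and the repressor NR1D1 by 0.70 ± 0.08, while the output factors DBP (-1.25 ± 0.09) and PER3 (-0.94 ± 0.09) fell. The hour at which cultures were harvested is not given in the labels.

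The study itself chose 14 core genes, a choice that may have drawn on these samples, so that their direction here is not independent evidence. Of the 13 tested 8 were lower and none was higher, with a median of -0.32, and ESR1 had too few reads. CDH1, E-cadherin, was the most changed, from 6.61, 6.34 and 6.77 CPM to 1.36, 1.35 and 2.03 CPM (-2.05 ± 0.17). CTNNB1, beta-catenin, went from 455, 421 and 406 CPM to 264, 259 and 268 CPM (-0.70 ± 0.06). The kinase genes AKT1 (-0.34 ± 0.06) and AKT2 (-0.43 ± 0.06) were lower.

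The 24 h libraries, which share no sample with the 48 h ones, showed how the response stood a day earlier. At that time MOO had raised 2577 (18.1%) and lowered 2520 (17.7%) of 14249 genes, 5097 DE in all (35.8%). A fit with a replicate block called more genes at 24 h, as given with the processing alternatives, and the counts and shares here are without it. Among 14072 genes tested at both times, 4042 were DE at both and 3895 of these (96.4%) had the same direction. That shared set was 45.6% of the genes DE at 48 h and 76.8% of those DE at 24 h. By the estimates alone 2621 of the 3895 changed more at 48 h, but a test of the difference between the times, given below, passed for only 946 of the 3895, in either direction. Across genes the log2 fold changes of both times had a Pearson r of 0.762, a description only, since genes are not independent replicates.

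**Figure D3:**
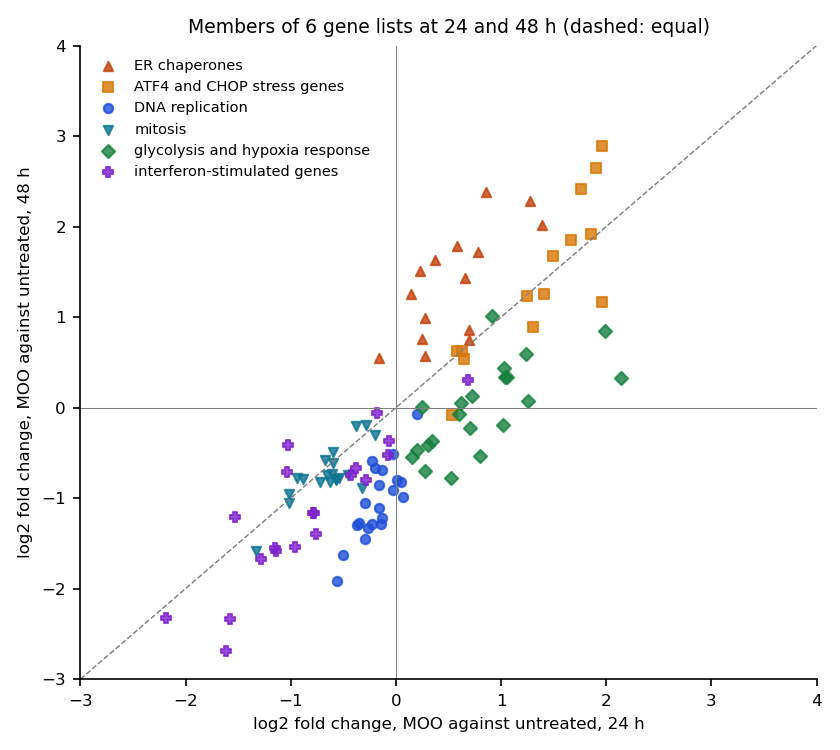
Log2 fold change of MOO against untreated at 24 h (horizontal axis) and at 48 h (vertical axis), 1 point per member of 6 gene groups, with a dashed line where both are equal. HSPA5 was at 0.86 and 2.38, above the diagonal, while CA9 was at 2.14 and 0.32, below it.

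A model over the 12 libraries tested whether the effect itself differed between the times. It did for 3100 of 14728 genes (21.0%), with the effect more positive at 48 h for 1281 (8.70%) and more negative for 1819 (12.4%). That split, 41.3% of calls upward, depended on scaling and became 58.6% with library sizes alone. The upward count ran from 838 to 1719 when single libraries were left out, at 838 without untreated replicate 3 of 24 h, 839 without untreated replicate 3 of 48 h, 841 without untreated replicate 2 of 48 h and 1719 without MOO replicate 3 of 24 h.

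ER chaperones gained strength with time. At 24 h 12 of 15 were higher, with a median of 0.58, and for 13 of 15 the effect was larger at 48 h than at 24 h, the median difference being 0.79. With 1 scaling over the 12 libraries (CPM values shift slightly with the set of libraries scaled together), HSPA5 stood at 735, 759 and 728 CPM in untreated cells at 24 h and 1353, 1309 and 1368 CPM in MOO at 24 h. At 48 h it stood at 1311, 1234 and 1246 CPM in untreated cells and 6883, 6473 and 6566 CPM in MOO. Its difference in effect was 1.53 ± 0.07 (edgeR, adjusted p = 3.22e-09), and both the untreated and the MOO level moved between the times. The ATF4 and CHOP genes were all 14 higher already at 24 h, with a median of 1.45, and 3 became more positive and 3 less so by 48 h.

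Replication and mitosis genes parted in time. All 20 mitosis genes were lower at 24 h (median -0.60), whereas only 9 of 21 replication genes were lower and 1 higher, with a median of -0.16. The 9 were 5 without untreated replicate 2 of 24 h, and the 1 was 0 without that library, untreated replicate 1, MOO replicate 2 or MOO replicate 3 of 24 h. By 48 h the effect on all 21 replication genes had become more negative, by a median of 0.92 on the log2 scale, against 3 of 20 mitosis genes (1 with library sizes alone, 5 by DESeq2). PCNA averaged 141 ± 6.85 CPM in untreated and 148 ± 9.58 CPM in MOO at 24 h, and 119 ± 3.92 CPM and 60.2 ± 3.36 CPM at 48 h (mean ± SD, n = 3). The fall was thus seen at the later time, and the difference in effect was -1.05 ± 0.09.

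Most glycolysis and cholesterol genes were higher after MOO at 24 h, and most of these effects were less positive at 48 h. Of 21 glycolysis and hypoxia genes 19 were higher at 24 h, with a median of 0.73, and for 20 the effect was less positive at 48 h. Of 20 cholesterol genes 16 were higher at 24 h, with a median of 0.36, and for 15 the effect was less positive at 48 h. NDRG1 averaged 258 ± 1.52 CPM in untreated and 1023 ± 14.1 CPM in MOO at 24 h, and 454 ± 6.16 CPM and 819 ± 38.5 CPM at 48 h (mean ± SD, n = 3). The untreated level had risen by 48 h while the MOO level had dropped. CA9 averaged 2.96 ± 0.962 CPM and 12.9 ± 0.958 CPM at 24 h, and 5.89 ± 1.44 CPM and 7.38 ± 0.604 CPM at 48 h.

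**Figure D4:**
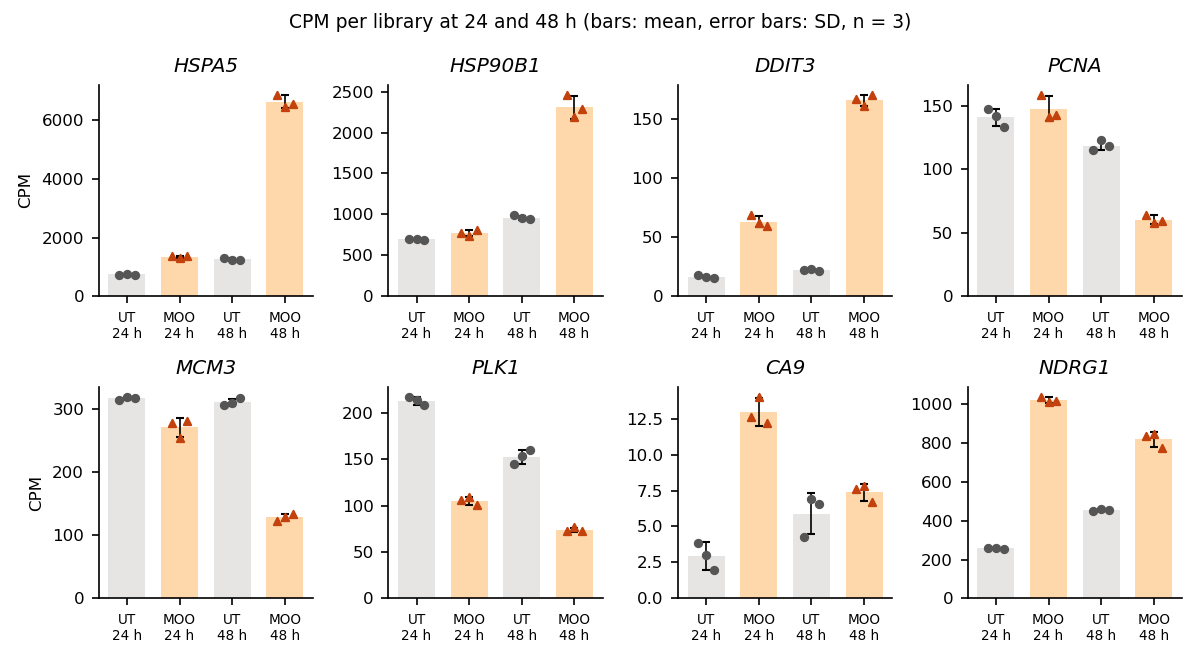
Normalised read count (CPM, 1 scaling over 12 libraries) of HSPA5, HSP90B1, DDIT3, PCNA, MCM3, PLK1, CA9 and NDRG1 in untreated (UT) and MOO cells at 24 h and 48 h, with points for libraries, bars for the mean and error bars for the SD (n = 3). PCNA in MOO averaged 148 CPM at 24 h and 60.2 CPM at 48 h.

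Interferon-stimulated genes were lower at both times, 16 of 20 at 24 h with a median of -0.87. Where the mean level reached 10 CPM, the effects that grew most positive by 48 h were those on HSPA5 (1.53), PABPC1L (1.46), a cytoplasmic poly(A)-binding protein, MMP1 (1.42), GABBR1 (1.33), a GABA-B receptor subunit, and SEL1L (1.30), an adaptor of ER-associated degradation. By the same limit, the largest downward shifts in effect were those for the nerve growth factor receptor NGFR (-2.02), SLCO4A1 (-1.96) and the stathmin STMN3 (-1.76). Aldolase C, ALDOC (-1.63), and TMEM238 (-1.63) came next. ALDOC was still higher in MOO than in untreated cells, its rise having shrunk from 1.88 to 0.24 on the log2 scale between the times.

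MOO and OO differed in the labels by macrozamin, so that their comparison at 48 h asked what its presence changed. Few genes differed by much. The test called 1402 of 14421 genes (9.72%), with 851 (5.90%) higher and 551 (3.82%) lower in MOO, and only 19 of them (0.132%) differed 2-fold or more. The total rested on single libraries, being 855 without OO replicate 2, 888 without OO replicate 1, 888 without OO replicate 3, 918 without MOO replicate 3 and 2246 without MOO replicate 2. It was 307 with a spread estimated over all 18 libraries of the 48 h groups.

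Replication and mitosis genes were less depressed in MOO than in OO. All 20 mitosis genes (median 0.31) and 20 of 21 replication genes (median 0.33) were higher in MOO than in OO, and with the 18-library spread 12 and 11 were. UHRF1 stood at 31.7, 30.5 and 29.1 CPM in OO and 45.4, 55.1 and 47.4 CPM in MOO, a log2 difference of 0.70 ± 0.07 (edgeR, adjusted p = 8.05e-07). Fatty acid genes were higher in MOO in 8 of 8 cases and cholesterol genes in 12 of 20, counts that were 1 and 5 with the 18-library spread. For the cholesterol genes the count was 8 without OO replicate 3. ER chaperones were lower in MOO in 5 of 15 cases and ATF4 and CHOP genes in 6 of 14, with medians of -0.12 and -0.11. These counts were 0 and 1 with the 18-library spread, and the 5 became 2 without MOO replicate 3, OO replicate 1 or OO replicate 3, 3 without OO replicate 2 and 8 without MOO replicate 2.

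The single genes that differed most by the naming rule included strong responders such as IL24 and IL1A. BMP4, which had a log2 fold change against untreated of -3.30 with OO and -2.51 with MOO, stood at 60.9, 61.2 and 52.5 CPM in OO and 94.1, 102 and 105 CPM in MOO (0.79 ± 0.06). The acute-phase protein SAA1 (0.76), the transporter SLCO4A1 (0.71) and ZBED6CL (0.71) were also higher in MOO. IL1A stood at 15.5, 14.5 and 17.3 CPM in OO and 11.7, 8.9 and 8.8 CPM in MOO (-0.69 ± 0.11), and IL24 (-0.64), the BMP modulator KCP (-0.57) and the heat shock genes HSPA6 (-0.67) and HSPA1A (-0.58), which share reads with close copies, were lower. Below the level set for naming genes, LGALS12, picked out after its values were seen, stood at 2.37, 1.88 and 1.36 CPM in OO and 5.28, 5.32 and 6.17 CPM in MOO (1.59 ± 0.18).

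Other strong responders could not be told apart between MOO and OO. KRT34 differed by 0.09 on the log2 scale, with a 95% interval of -0.03 to 0.21, CEMIP by 0.02 (-0.10 to 0.13) and CYP1A1 by -0.23 (-0.55 to 0.09). These intervals rest on the spread among 3 libraries in each group, so somewhat larger differences are not excluded.

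Against untreated cells, the values of OO and MOO are set side by side only, since both comparisons use the same 3 untreated libraries. OO changed 9792 of 14432 genes (67.8%), 34.1% upward and 33.7% downward. Of its calls 50.3% were upward, or 60.3% with library sizes alone, which moved its median gene from 0.01 to 0.11. ER chaperones were higher in 15 of 15 cases after OO, with a median of 1.55, next to 1.43 after MOO, and ATF4 and CHOP genes had medians of 1.45 and 1.24. Replication genes had medians of -1.52 after OO and -1.05 after MOO, and mitosis genes of -1.08 and -0.77.

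Whole CKI gave another profile. Of 14519 genes tested between MOO and CKI at 48 h, 8404 (57.9%) passed, with 4260 (29.3%) higher and 4144 (28.5%) lower in MOO, and 1152 (7.93%) differed 2-fold or more. All 15 ER chaperones were higher in MOO than in CKI, with a median log2 difference of 1.78, and so were 12 of 14 ATF4 and CHOP genes (median 1.65). HSPA5 stood at 829.9, 760.3 and 773 CPM in CKI and 7172, 6786 and 6837 CPM in MOO (3.14 ± 0.06), and DDIT3 at 20.7, 19.3 and 18.4 CPM and 174, 169 and 177 CPM (3.15 ± 0.06). The libraries of both treatments were far apart for these genes.

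Other groups differed in the opposite sense or split. Cholesterol genes were lower in MOO than in CKI in 19 of 20 cases (median -0.77) and glycolysis and hypoxia genes in 20 of 21 (median -0.49). Replication genes were lower in MOO in 19 of 21 cases (median -0.52), while mitosis genes were higher in 16 of 20 (median 0.47). CYP1A1 stood at 65.7, 63.3 and 64.1 CPM in CKI and 4.02, 6.44 and 6.49 CPM in MOO (-3.51 ± 0.10), and ANGPTL4, an inhibitor of lipoprotein lipase, differed by -3.67 ± 0.09. With a mean of at least 10 CPM required, the other genes lower in MOO by the most were ITGA10 (-3.14), the protease inhibitor CST1 (-2.82) and AQP3 (-2.81). KRT34 (3.87), the cholesterol exporter ABCA1 (3.34) and IL24 (7.13 ± 0.287 CPM in CKI and 66.4 ± 0.688 CPM in MOO, mean ± SD, n = 3) were higher by the most under the same limit, with DDIT3 and HSPA5. CEMIP did not pass, at -0.02 with a 95% interval of -0.17 to 0.12.

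**Figure D5:**
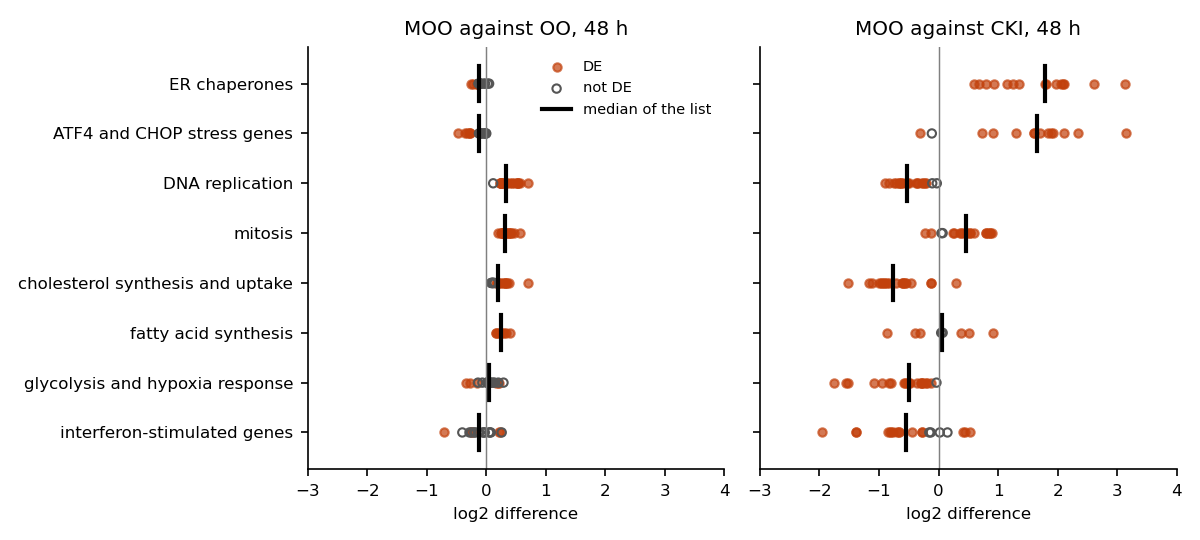
Log2 difference of MOO from OO (left) and of MOO from CKI (right) at 48 h for the tested members of 8 gene groups, 1 point per gene, filled where DE, with a bar at each median. The ER chaperones had a median of -0.12 against OO and of 1.78 against CKI.

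Set beside its own untreated comparison, which again uses the same untreated libraries, CKI changed 9037 of 14448 genes (62.5%), 31.6% upward and 31.0% downward. Of these calls 50.5% were upward, or 59.2% with library sizes alone. ER chaperones were higher in 3 and lower in 9 of 15 cases after CKI, with a median of -0.27, against 1.43 after MOO. Cholesterol genes were higher in 19 of 20 cases after CKI, with a median of 0.68, against 0.03 after MOO. Mitosis genes had medians of -1.10 after CKI and -0.77 after MOO, and replication genes of -0.57 and -1.05.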

How the data were processed

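RNA from MDA-MB-231 cultures was enriched with oligo(dT), made into strand-specific libraries and sequenced on a HiSeq instrument as paired 150-base reads, per the labels. The submitters' processing notes name FastQC 0.11.4, Trim Galore 0.3.7, STAR 2.5.3a, Subread 1.5.2 with featureCounts, edgeR 3.22.3 and the build hg19. The authors deposited raw read counts per gene symbol, and the strand setting of the counting is not given in the sources used here, so overlapping and antisense genes are uncertain. From these counts, genes were kept by filterByExpr (minimum count 10), scaled by TMM and tested pairwise with the quasi-likelihood test of edgeR 4.0.16 in R 4.3.3, 2 groups of 3 libraries per fit, with Benjamini-Hochberg adjustment over all genes tested. The difference between 48 h and 24 h was an interaction term over 12 libraries. Genes were called DE at an adjusted p under 0.05. CPM values used the same scaling, except the sums of marker lists, which were scaled by library totals alone. Fits were tested on simulated data. DESeq2 1.42.0, other scalings and filters, a spread over 18 libraries, a replicate block and left-out libraries were alternatives.

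Named genes were the 12 largest rises and 12 largest falls at a mean of at least 10 CPM without overlap, up to 5 genes per list (the first written and the largest changes), the 5 largest differences each way in the other comparisons, and the genes of the stained proteins. A few genes that this rule names are not reported here. Further members were named after their values were seen, as exceptions or to show promoters. Gene lists and comparisons were chosen with earlier results of these data known. Promoter sequence came from RefSeq (GRCh38.p14), where 263 of 337 listed genes matched a window by symbol.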

Additional observations from a re-analysis of the deposited data

Results flagged for a closer look

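For 35 named genes the effect of MOO differed between 48 h and 24 h by at least 2-fold, by the interaction term over the 12 libraries (edgeR quasi-likelihood test, adjusted p under 0.05), and the values that follow are the log2 fold change at 48 h minus that at 24 h. Over all genes tested, 336 of 14728 differed by as much. Some genes were named for the largest difference between the times and others for large changes at 48 h, so the 35 do not measure how common such differences were. Groups of 3 libraries are too small for a search for single outlying libraries.

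Among the largest risers at 48 h, the difference was 1.04 for IL24, 1.44 for PSG7, 1.42 for MMP1 and 1.03 for SLC7A11. Among the largest fallers it was -1.50 for PLEKHS1, -1.50 for ALPP, -1.10 for RARRES3, -1.49 for CD14, -1.52 for AQP3, -1.96 for SLCO4A1 and -1.50 for BCAM. For these 11 genes the effect was further from zero at 48 h, a direction favoured in advance by their choice as the largest changes at 48 h.

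HSPA5 (1.53), HERPUD1 (1.01) and SEL1L (1.30) of the ER folding and degradation machinery had a larger rise at 48 h. The replication genes PCNA (-1.05), UHRF1 (-1.34) and TYMS (-1.12) and the CDK inhibitor CDKN2C (-1.06) had a more negative effect at 48 h. The interferon-stimulated gene OAS1 (-1.06), the integrin ITGB8 (-1.02) and the clock output gene DBP (-1.36) did too.

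Of the lipid and hypoxia genes, the difference was -1.001 for MVK, -1.81 for CA9, -1.13 for NDRG1 and -1.29 for EGLN3. Untreated levels of NDRG1 and CA9 rose between 24 h and 48 h, and the part of that rise in the differences was not tested.

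The differences were positive for IL1A (2.17), EGR1 (1.06), PABPC1L (1.46), GABBR1 (1.33) and KCP (1.07). HSPA6, an inducible HSP70 gene with close copies, had the largest, at 3.23 on the log2 scale, from levels of 1.33, 1.31 and 1.68 CPM in untreated and 1.53, 1.23 and 1.37 CPM in MOO at 24 h, and 1.68, 1.7 and 2.04 CPM and 16.6, 16 and 15.6 CPM at 48 h. The differences were negative for NGFR (-2.02), STMN3 (-1.76), ALDOC (-1.63) and TMEM238 (-1.63).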

How the results depend on the processing

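A threshold of 2-fold on top of the test left 1531 DE genes (748 higher, 783 lower) for MOO against untreated at 48 h, 709 (323, 386) at 24 h, 336 (166, 170) for the difference between the times, 19 (6, 13) against OO, 1152 (441, 711) against CKI, 2032 (1002, 1030) for OO against untreated and 1574 (921, 653) for CKI against untreated. With the spread over 18 libraries 307 genes (226, 81) differed between MOO and OO. Leaving out 1 library gave 855 to 2246 genes for MOO against OO, 555 to 1251 higher and 294 to 995 lower, and 838 to 1719 more positive effects at 48 h. The cause was not tested. For MOO against untreated at 48 h the count of 8701 was 8696 with DESeq2's size factors, 8808 with library sizes alone, 8068 by DESeq2, 9064 with any counted gene, 8255 at a mean of 1 CPM, 7940 with the 18-library spread and 7743 to 8914 without 1 library. Library sizes alone moved the median gene from 0.01 to 0.09.

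Same-numbered untreated and MOO replicates at 48 h deviated with correlations of 0.084, 0.024 and -0.056, and those at 24 h with 0.238, -0.038 and 0.248, so that in neither case was every pair over 0.1. At 24 h untreated replicate 3 with MOO replicate 1 was at -0.285 and untreated replicate 1 with MOO replicate 3 at -0.229, so replicates 1 and 3 there may have been paired. For MOO against OO the values were -0.042, 0.039 and -0.015 and against CKI 0.017, -0.029 and 0.059. The labels give no more than the number. A replicate block gave 8946 DE genes at 48 h, 7183 in place of 5097 at 24 h, 2973 for the difference between the times, 1728 against OO and 8551 against CKI, changing no summary count by over 1.5 times. It moved some list counts at 24 h by more, such as apoptosis regulators higher from 3 to 8 and core genes lower from 5 to 10. Not every sample correlated best with its own number.

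Of 2063 checks of named genes under the alternatives other than the 2-fold threshold, 2044 kept call and direction, 13 lost the call, 6 gained it and none changed direction. The 7 genes concerned were AJUBA, ANGPTL4, CA9, FOS, IRF7, MT1F and SPRED1 in MOO against untreated. For lists of few calls, library sizes alone left 1 gene of the YAP and TEAD group and 1 immediate early gene lower. The 18-library spread left 1 gene of the YAP and TEAD group and 1 metallothionein-list gene lower, and a mean of 1 CPM left 1 actin gene higher and no cytokine lower. With 3 libraries a group, small differences and genes of a few reads were the least certain.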
